A study of Mus musculus with 2 samples.

Results

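Mature neutrophils of the adrenal gland were taken as barcodes with at least 300 genes, at most 25% mitochondrial counts, at least 30 unique molecular identifiers (UMIs, each tagging 1 captured transcript) and at least 2% of UMIs from S100a8 and S100a9, and at least 1 UMI of Csf3r, Cxcr2 or Retnlg. They also had to hold under 20 UMIs of the late granule genes Camp, Ngp and Ltf, under 5 UMIs of the primary granule genes Elane, Prtn3, Mpo and Ctsg, and no UMI of Cd3e. This gave 674 cells of 19692 barcodes deposited, with 181 cells at 6 weeks and 493 at 9 weeks. The cells were thus chosen by their measured levels of these genes, whose values below are a description and support nothing.

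The cells came from adrenal glands of female C57BL/6J mice of the genotype SF1-Cre+;Znrf3Fx/Fx at both ages. SF1-Cre acts in steroid-producing cells and not in blood cells, and Znrf3 encodes a membrane ubiquitin ligase that dampens Wnt signals. The submitters describe 6 weeks as the stage of overgrowth and 9 weeks as the stage of regression, and asked how the immune cells of the gland differ once senescence has begun. One library was made per age, from 2 pooled adrenals at 6 weeks and 3 at 9 weeks, and no library of mice without the deletion was analysed here. Red blood cells were lysed, and viable cells that took up a DNA dye and excluded DAPI were sorted before 3' capture.

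With 1 library per age, no test across animals was possible and no p-value was computed. Age, library and pool of animals cannot be told apart, and every interval below is a 95% interval for counting error only. The 6-week library held 97001752 UMIs and the 9-week library 99728879 UMIs. At least 300 genes and the mitochondrial limit left 8707 and 10683 cells. The libraries had 29 barcode sequences in common, and 1 of these was a mature neutrophil in either library.

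Neutrophils are short-lived phagocytes that leave the bone marrow after filling their granules in a fixed order, from primary through secondary to gelatinase granules. Transcripts of granule proteins fade as the cell matures, while receptors for chemokines and growth factors such as Cxcr2 and Csf3r appear. Mature neutrophils hold little RNA, so a minimum number of genes per barcode removes them before most other cells, and interferons induce a large set of antiviral and antigen-presentation genes in them.

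S100a8 (ENSMUSG00000056054, mm10 chromosome 3, 90668978 to 90670035), a subunit of the calcium-binding protein calprotectin, had 48169 CPM at 6 weeks and 50087 CPM at 9 weeks (CPM are UMIs scaled to a common total, here all UMIs of the neutrophils of 1 library). In non-immune cells it had 1.73 and 46.3 CPM. Its partner S100a9 had 78862 and 73458 CPM. Mmp9, the gelatinase of the last granules and not part of the rule, had 2653 CPM (2483 to 2831) and 1981 CPM (1905 to 2060), against 0.246 and 0.588 CPM in non-immune cells. The levels of S100a8 and S100a9 are set by the rule, as are the low levels of 4 of the 5 granulocyte precursor markers, which were at 0 UMIs at 6 weeks and summed to 4.67 CPM at 9 weeks. The eosinophil markers, which the rule did not use, summed to 40.9 and 14.01 CPM. Other foreign markers were more abundant. The 5 cortical markers made the largest foreign sum of the 6-week neutrophils, 2375 CPM, while the 9-week sum was 1171 CPM. A single cell held up to 401 of their UMIs in the younger library and 350 in the older one. Restricting to under 1000 genes lowered the cortical sums to 623 and 261 CPM. Monocyte markers reached 397 and 689 CPM. The deepest cells stood apart from the rest, as given next.

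Mature neutrophils were shallow cells. They had a median of 757 genes (quartiles 683 and 888) and 1571 UMIs at 6 weeks, and 845 genes (734 and 999) and 1975 UMIs at 9 weeks. The median non-immune cell had 14483 and 11444 UMIs. Cells with 1500 genes or more numbered 8 of 181 at 6 weeks and 37 of 493 at 9 weeks, yet held 16.0% and 27.2% of the neutrophils' UMIs. Of these, 7 and 36 cells carried at least 10 UMIs of markers of other cell types, and the doublet caller Scrublet marked 7 and 27. In these cells S100a8 and S100a9 took 4.31% and 5.41% of UMIs, and the 6 macrophage markers summed to 583 and 14517 CPM. Cells under 1000 genes had 412 and 607 CPM of the same markers. Each gene list below is therefore also given for cells under 1000 genes, which numbered 163 and 370, and it is said where a gene named from it was not called there.

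**Figure D1:**
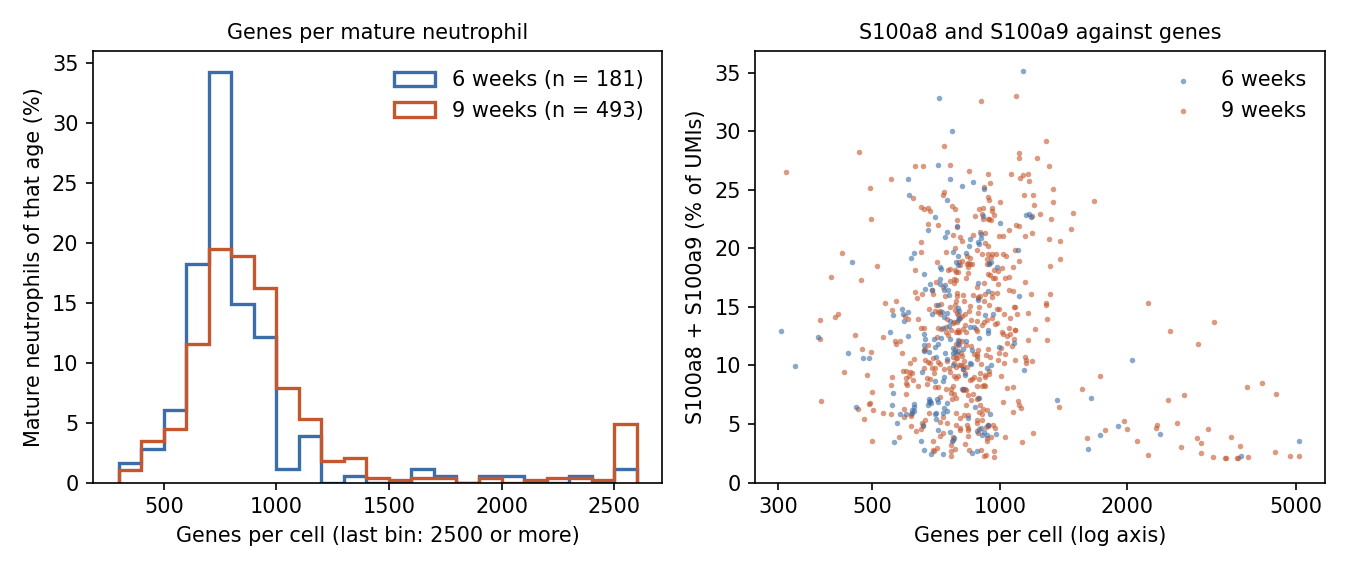
Genes per mature neutrophil as a percent of the cells of each age (left, bins of 100 genes), and the percent of UMIs from S100a8 and S100a9 against genes per cell on a log axis (right, 1 point per cell). Medians were 757 genes at 6 weeks and 845 at 9 weeks. Most of the few cells with 1500 genes or more had low S100 percentages, with up to 24.0% at 9 weeks.

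Few cells lay near the limits of the rule. From 30 to under 40 UMIs of S100a8 and S100a9 there were 5 cells at each age, and 4 and 5 barcodes that met all other conditions lay from 20 to under 30. At 2 to 3% of UMIs there were 7 and 23 cells, and 11 and 18 lay outside at 1 to 2%. From 300 to under 350 genes there were 2 cells and 1 cell, and 1 and 2 lay from 250 to under 300 genes. For the late granule genes, 0 and 11 cells lay from 10 to under 20 UMIs and 0 and 6 from 20 to under 30.

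Mature neutrophils were more frequent in the 9-week library. They numbered 181 of 8707 cells at 6 weeks, or 2.08% (exact Clopper-Pearson interval 1.79 to 2.40), and 493 of 10683 at 9 weeks, or 4.61% (4.22 to 5.03). The ratio was 2.22, with a range of 1.76 to 2.81 made from the bounds of both shares. Immune cells as a whole were 32.0% and 68.3% of cells, a ratio of 2.13. Among the 2788 and 7294 immune cells, mature neutrophils were 6.49% (5.61 to 7.47) and 6.76% (6.19 to 7.36), and these intervals overlapped. An immune cell was a barcode with at least 3 UMIs and 0.1% of UMIs from Ptprc, Laptm5, Coro1a, Tyrobp, Cd52 and Fcer1g, and the last of these and Tyrobp are high in neutrophils.

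The size of this difference changed little with a gene minimum of up to 600 genes and moved from 750 genes. With 200 genes there were 182 and 495 mature neutrophils and the ratio was 2.22, and with 500 genes there were 173 and 471 (2.01% and 4.47%) and the ratio was 2.23. At 600 genes the ratio was 2.26, with 162 and 449 cells. At 750 genes it was 3.05, with 96 cells (1.16%) and 359 cells (3.53%). At 1000 genes only 18 cells at 6 weeks (0.231%, 0.137 to 0.365) and 123 at 9 weeks (1.29%, 1.07 to 1.53) were left, and the ratio was 5.56. At 1500 genes the 8 and 37 cells gave 3.82, and most of those cells carried markers of other types, as above. Among immune cells the ratio was 1.04 at 300 genes (0.829 to 1.31), 1.39 at 750 genes and 2.41 at 1000 genes. The share of mature neutrophils among immune cells thus had overlapping intervals at both ages up to 500 genes and separate ones from 750 genes.

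**Figure D2:**
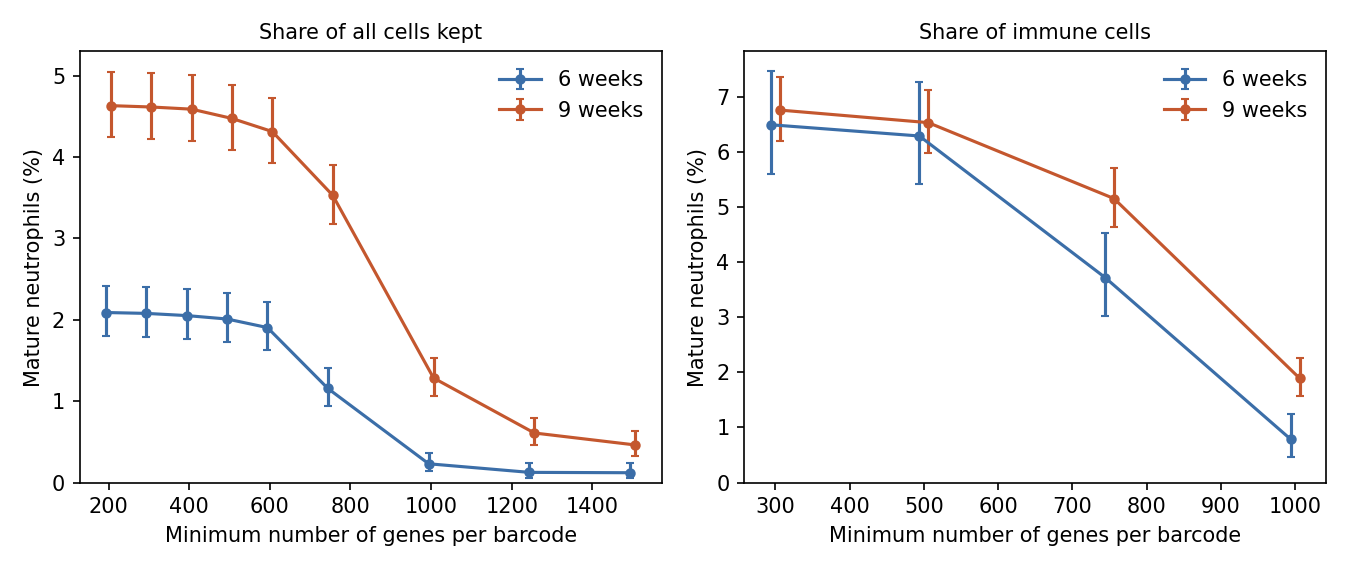
Mature neutrophils as a percent of all cells kept (left) and of immune cells (right) against the minimum number of genes per barcode, with exact 95% intervals for counting error. The shares were flat up to 500 genes and then fell at both ages, from 2.01% to 0.231% of all cells at 6 weeks and from 4.47% to 1.29% at 9 weeks between 500 and 1000 genes.

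Immature neutrophils, taken by the same rule with at least 20 UMIs of Camp, Ngp and Ltf, were found in the 9-week library only. There were 0 of 8707 cells at 6 weeks, which allows a share of up to 0.0345% by the limit of 3 counts (the exact upper bound was 0.0424%), and 328 of 10683 at 9 weeks (3.07%, 2.75 to 3.42). Mature cells were therefore 181 of 181 neutrophils of both stages at 6 weeks and 493 of 821 at 9 weeks (60.05%, 56.6 to 63.4). Both stages together were 6.49% and 11.3% of immune cells. Within the mature cells, those without any late granule UMI were 171 of 181 (94.5%) and 364 of 493 (73.8%). Their median depth was 1571 UMIs at 6 weeks and 1975 UMIs at 9 weeks. Camp also had UMIs in 0.439% and 10.7% of non-immune cells. The part of depth and free RNA in this difference was not tested.

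The mature and immature cells of the 9-week library differed in genes that the rule did not use, as a description of cells that the rule split. Lcn2, the iron-sequestering lipocalin of secondary granules, had 2912 CPM in mature and 18834 CPM in immature cells. Cebpe, the transcription factor of secondary granule genes, had 29.6 and 514 CPM, and the surface marker Ly6g 360.5 and 1288 CPM. Il1b, which encodes the inflammatory cytokine interleukin 1 beta, went the other way, with 2602 CPM in mature and 47.8 CPM in immature cells, as did the chemokine gene Ccl6, with 2232 and 99.5 CPM. The mature cells thus stood apart from the immature ones in both directions.

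Granule genes were compared between the ages by role. A gene was called higher or lower at 9 weeks where the ratio of CPM + 10 was at least 1.5-fold and the Poisson intervals of the 2 levels lay apart. Of 5360 genes measured (20 CPM in 1 library and 20 UMIs over both), 209 were called higher (3.9%) and 176 lower (3.28%). With the median log2 ratio of all genes, which was -0.07, set to 0, the counts were 261 and 121. Among cells under 1000 genes, 65 of 4010 genes were called higher (1.62%) and 76 lower (1.9%), with a median of -0.06. Without the 10 and 55 cells that carried at least 10 UMIs of markers of other cell types, 68 of 4394 genes were called higher (1.55%) and 102 lower (2.32%).

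Of 11 secondary granule genes measured that are not part of the rule, 3 were called higher (Chil3, Ifitm6 and Cybb) and 0 lower, with a median log2 ratio of 0.43. Under 1000 genes 0 of 10 were called, with a median of 0.35. With the rule genes Camp and Ngp, 5 of 13 were called higher, and under 1000 genes 2 of 12. Lcn2 had 2004 CPM (1857 to 2160) and 2912 CPM (2819 to 3006), a log2 ratio of 0.54 that is under the fold required. The chitinase-like gene Chil3 was at 0 UMIs at 6 weeks and had 156.5 CPM (135.6 to 179.7) at 9 weeks, at least 17.9-fold higher against a floor of 3 UMIs over the 6-week cells. It had 7656 CPM in the immature cells and 2800 CPM in the monocytes of that library, and under 1000 genes it was not called. Hp, which encodes haptoglobin, had 2474 and 2957 CPM and Mmp8, the neutrophil collagenase, 684 and 845 CPM, and neither was called.

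Camp (chromosome 9, 109847379 to 109849617), the cathelicidin precursor, was at 0 UMIs at 6 weeks and had 86.4 CPM (71.1 to 104) at 9 weeks. It had UMIs in 12.98% of mature neutrophils of the 9-week library at a median of 1975 UMIs, and in 10.7% of its non-immune cells at a median of 11444 UMIs, where it had 11.1 CPM. Ngp had 49.7 and 195.4 CPM, and 8.12 CPM in non-immune cells of the 9-week library. How much free RNA of the immature cells added to these levels was not tested.

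Gelatinase granule and cytosolic genes differed little. Of 18 measured, 2 were called higher and 0 lower, with a median of 0.09, and under 1000 genes 2 of 17 were higher, with a median of 0.12. The former were Retnlg, a resistin-like secreted protein that is part of the rule, with 9693 CPM (9366 to 10029) and 15025 CPM (14813 to 15238), and the protease inhibitor Stfa1, with 81.8 and 209.4 CPM. Under 1000 genes Retnlg had 8864 and 11392 CPM and was not called, while Stfa1 (110 and 304 CPM) and its relative Stfa3 (0 UMIs and 47.4 CPM) were. Of the 6 primary granule genes measured, Lyz2 (lysozyme) and Ctsc (cathepsin C, which activates granule proteases) were called higher and 0 lower. Under 1000 genes none of 5 was called, with 2932 and 4169 CPM for Lyz2 and 39.2 and 53.5 CPM for Ctsc.

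Levels of Retnlg and other granule genes also differed with the number of genes per cell. In cells with 1000 to under 1500 genes, Retnlg had 23415 CPM at 6 weeks (10 cells) and 31621 CPM at 9 weeks (86 cells), against 9509 and 11286 CPM in cells with 750 to under 1000 genes. Lcn2 had 3650 and 4683 CPM in the former and 2218 and 2990 CPM in the latter. Mmp8 followed the same order, with 1608 and 1918 CPM against 666 and 595 CPM, and S100a8 with S100a9 took 20.6% and 17.9% of UMIs against 14.3% and 13.8%. Csf3r ran the other way, with 1701 and 1634 CPM against 3206 and 2503 CPM. At 9 weeks 17.4% of the cells lay from 1000 to under 1500 genes, against 5.52% at 6 weeks.

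Across cells thinned to 1000 UMIs each (169 and 470 cells, with 12 and 23 shallower ones left out), the count of S100a8 and S100a9 went with Retnlg at a Spearman rho of 0.59 at 6 weeks and 0.60 at 9 weeks. It went with granule genes outside the rule at 0.60 and 0.56. Retnlg and Il1b had a rho of -0.16 and -0.21. These values describe cells that share a library and a fixed total, so one abundant gene lowers the others, and part of the relation with Retnlg is set by the rule.

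Receptors differed little between the ages. Of 14 chemoattractant receptors measured, 3 were called higher, Ccr2 and C3ar1 among them, and 0 lower, with a median of 0.05. Ccr2 is a receptor of monocytes, and under 1000 genes Ccr2 had 3.92 and 3.06 CPM and only the chemerin-binding receptor Ccrl2 was called, at 3.92 and 36.7 CPM. Cxcr2, the receptor for neutrophil-attracting chemokines, had 2095 CPM (1944 to 2254) and 2029 CPM (1952 to 2108). Cxcr4, which retains neutrophils in the marrow and marks aged ones, had 260 CPM (208.8 to 320) and 172 CPM (150.1 to 196), a log2 ratio of -0.57 that is under the fold required. The receptors for complement C5a and for formyl peptides, C5ar1, Fpr1 and Fpr2, were not called.

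Of 22 cytokine receptors, Il1r2 was called higher and Il6st lower, with a median of -0.12, and under 1000 genes 1 of 21 was called, with a median of 0.02. Il6st, the shared signalling chain of interleukin 6 receptors, had 105 and 24.1 CPM, but 3.92 and 1.53 CPM under 1000 genes, and it was called neither there nor without the cells that carried markers of other types. Il1r2, the decoy receptor for interleukin 1, had 117 CPM (83.5 to 159) and 195 CPM (172 to 221), and it was also called under 1000 genes, with 133 and 240 CPM. Csf3r, the receptor for granulocyte colony-stimulating factor and part of the rule, had 2726 CPM (2554 to 2906) and 1829 CPM (1756 to 1904), a log2 ratio of -0.57 with separate intervals. Both interferon gamma receptor genes, Ifngr1 and Ifngr2, and the type I receptor gene Ifnar2 stayed under the fold, the last with 128.5 and 161 CPM. Of 16 adhesion genes, only the integrin chain gene Itgal was called, and it was lower (543 and 350 CPM). It lost its call under 1000 genes, with 659 and 468 CPM, where 0 of 16 were called, and also without the cells that carried markers of other types.

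Genes of the interferon response were higher at 9 weeks, and stayed so in the shallow cells. Of 54 genes in the list, 48 were measured, 15 were called higher and 1 lower, with a median log2 ratio of 0.64, and 45 of 48 lay above 0. Over all genes measured, 3.9% were called higher and the median was -0.07. Under 1000 genes, 16 of 44 were called higher and 0 lower, with a median of 0.70. The gene called lower, Cxcl10, had 29 UMIs at 6 weeks, all in 1 cell with 1725 genes, and 42 UMIs in 4 cells at 9 weeks, and it was among the 16 called higher under 1000 genes. Without the cells that carried markers of other types, 16 of 45 were called higher and 1 lower, with a median of 0.66.

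The GTPases and antiviral effectors of this list showed the largest ratios. Ifi47 (ENSMUSG00000078920, chromosome 11, 49076587 to 49096974), an interferon-induced GTPase, had 4 UMIs at 6 weeks, or 11.7 CPM (3.18 to 29.9), and 94 UMIs at 9 weeks, or 73.2 CPM (59.1 to 89.6), a log2 ratio of 1.94. Ifit1, which binds foreign RNA and blocks its translation, had 58.4 CPM (35.7 to 90.2) and 200.1 CPM (176 to 226), a log2 ratio of 1.62. Gbp2, a guanylate-binding protein that attacks intracellular microbes, had 78.9 CPM (52.0 to 115) and 226.5 CPM (201 to 254), a log2 ratio of 1.41. All 3 genes were also called in each of the 11 other settings. Under 1000 genes they had 7.84 and 102 CPM, 70.6 and 284 CPM, and 70.6 and 342 CPM. Over all other cells Ifi47 had 22.1 and 68.3 CPM, Ifit1 29.1 and 31.1 CPM, and Gbp2 31.3 and 53.6 CPM.

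The ubiquitin-like modifier Isg15 had 234 CPM (185 to 291) and 423 CPM (388 to 460), and Igtp, another GTPase, 49.7 and 109.8 CPM. Ifi27l2a had 643 and 1218 CPM and Rtp4 295 and 469 CPM. Ifit3 and Ifit3b were both called, with 49.7 and 100.4 CPM for Ifit3, but these near-identical genes may have split reads between them. Rsad2, which encodes the antiviral enzyme viperin, had 222 and 221 CPM, so the list did not move as one. The abundant membrane proteins Ifitm1, Ifitm2 and Ifitm3 lay above 0 without a call, with 3222 and 4589 CPM for Ifitm1, which was called under 1000 genes.

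Promoter sequences of Ifit1, Isg15 and Gbp2 are shown because these called genes carry the interferon-response motif, which is GAAA, any 2 bases and GAAA again (on the other strand TTTC, any 2 bases and TTTC). Sequences are from RefSeq on GRCm38.p6, run 5′ to 3′ on the strand of the gene from 250 bases before its start to 10 bases past the last match, and capitals mark the matches. Ifit1 lies at chr19:34640639-34640823 on the plus strand, Isg15 at chr4:156200865-156201068 on the minus strand and Gbp2 at chr3:142620413-142620623 on the plus strand.
Ifit1: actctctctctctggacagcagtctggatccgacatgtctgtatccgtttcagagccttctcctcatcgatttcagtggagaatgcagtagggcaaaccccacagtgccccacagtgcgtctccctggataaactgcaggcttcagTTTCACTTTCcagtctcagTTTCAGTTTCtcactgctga
Isg15: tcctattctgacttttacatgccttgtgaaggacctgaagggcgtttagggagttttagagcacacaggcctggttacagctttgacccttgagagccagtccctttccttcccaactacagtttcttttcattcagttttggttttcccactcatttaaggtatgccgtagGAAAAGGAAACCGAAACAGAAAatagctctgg
Gbp2: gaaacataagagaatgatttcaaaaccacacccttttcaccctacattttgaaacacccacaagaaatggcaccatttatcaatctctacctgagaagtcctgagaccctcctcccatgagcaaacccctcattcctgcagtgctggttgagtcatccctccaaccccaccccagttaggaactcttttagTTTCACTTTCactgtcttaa
Ifit1 has 2 matches, beginning 104 and 85 bases before the start, Isg15 has 3 that overlap, beginning 78, 72 and 66 bases before it, and Gbp2 has 1, beginning 59 bases before it. In the 250 bases before the start, 23 of the 43 interferon genes with a RefSeq promoter held the motif (53.5%), against 936 of all 27025 genes (3.46%). It was present in 6 of 9 genes called higher and in 13 of 28 not called, and in 3 of 17 MHC class I genes. A match describes the letters only, and Ifi47 had none in this window.

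**Figure D3:**
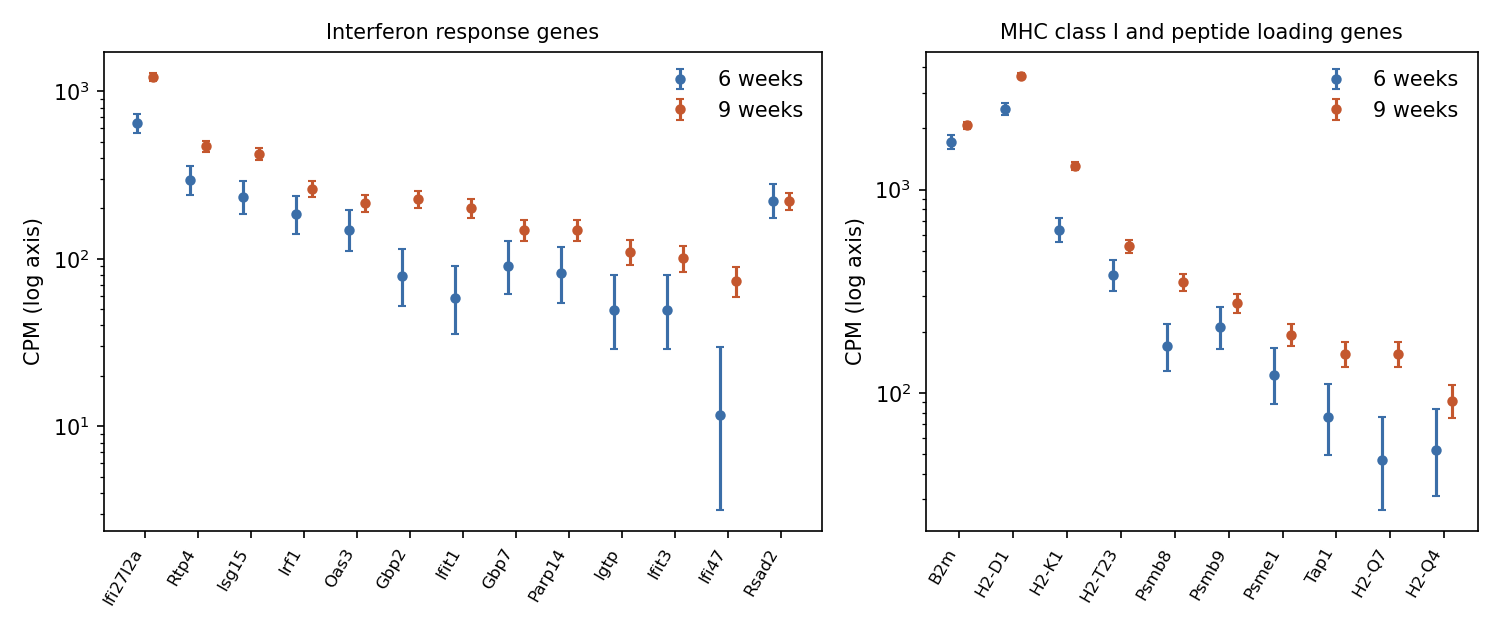
Levels (CPM, log axes) of 13 interferon response genes and 10 genes of MHC class I and peptide loading in mature neutrophils at 6 and 9 weeks, with 95% Poisson intervals for counting error. The 9-week level lies above the 6-week level for each of the genes drawn except Rsad2, with 222 and 221 CPM.

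The interferon list was higher in the median cell, and a minority of cells held a large part of its UMIs outside Ifitm1, Ifitm2 and Ifitm3. After thinning to 1000 UMIs, the interferon list gave a median of 13 UMIs per cell at 6 weeks (quartiles 9 and 20) and 22 UMIs at 9 weeks (15 and 32). Without the abundant Ifitm1, Ifitm2 and Ifitm3, the medians were 5 and 8 UMIs. Cells with at least 10 such UMIs were 21.9% (15.9 to 28.9) and 39.8% (35.3 to 44.4), and those with at least 20 UMIs were 6.51% (3.29 to 11.3) and 14.5% (11.4 to 17.98). These are ranges of a count and no cell types, with 20 and 70 cells within 1 UMI of the limit of 10. The cells at or above 10 UMIs held 53.1% and 72.4% of the UMIs of the list without the 3 Ifitm genes, and those at or above 20 UMIs held 25.8% and 42.1%. The cells were picked by the same counts, so these shares are a description only.

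**Figure D4:**
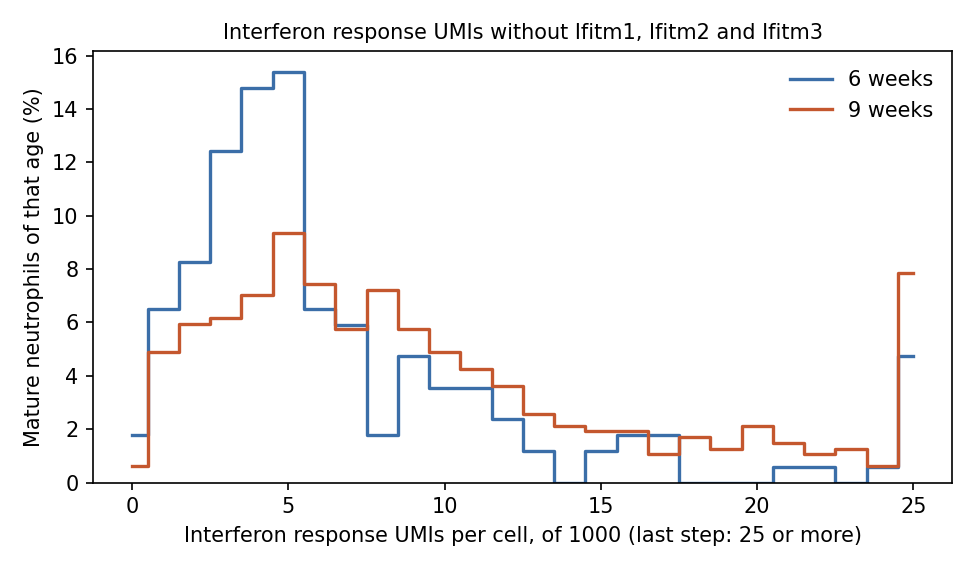
UMIs of the interferon response list without Ifitm1, Ifitm2 and Ifitm3 per mature neutrophil after thinning to 1000 UMIs (169 cells at 6 weeks, 470 at 9 weeks), as a percent of the cells of each age. The medians were 5 and 8 UMIs, and both ages had a tail of cells at 20 UMIs or more (6.51% and 14.5%).

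Genes of MHC class I presentation were higher at 9 weeks as well. Of 17 measured, 9 were called higher and 0 lower, with a median of 0.78, and under 1000 genes 7 of 16 were called, with a median of 0.70. Without the cells that carried markers of other types, 6 of 16 were called higher and 0 lower, with a median of 0.54. H2-K1 (chromosome 17, 33996017 to 34000347), a classical class I heavy chain, had 634 CPM (552 to 724) and 1307 CPM (1245 to 1371). Psmb8, a catalytic subunit of the immunoproteasome, had 169 and 350 CPM, and Tap1, which moves peptides into the endoplasmic reticulum, 76.0 and 156 CPM. H2-Q7, with the third largest log2 ratio of the genes named by rule (1.55), had 46.7 CPM (26.7 to 75.9) and 155.7 CPM (134.9 to 179). Over all other cells it was higher at both ages, with 112 and 295 CPM, and the part of free RNA was not tested. Reads may be split among the near-identical genes of the H2-Q group. B2m, the light chain of class I molecules, had 1718 CPM (1582 to 1862) and 2074 CPM (1996 to 2154), and Tapbp 196 and 163 CPM, and neither was called.

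In thinned cells the class I list gave medians of 6 and 9 UMIs. Per cell it had a Spearman rho of 0.27 and 0.26 with the interferon list without the Ifitm genes.

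The same lists were read in other cells of the same libraries. In 122 and 203 classical monocytes, taken by marker counts, 9 of 46 interferon genes were called higher and 0 lower (median 0.23), where 2.45% of all genes were called higher and 2.09% lower. Other immune cells were all immune cells that were neither mature nor immature neutrophils, so monocytes and granulocyte precursors were not taken out. In these 1 of 46 was higher and 1 lower (median 0.14, with 1.56% of all genes higher and 3.55% lower). In non-immune cells 15 of 35 were higher and 0 lower (median 0.54, with 7.76% of all genes higher and 3.46% lower). For MHC class I, 0 of 20 genes were called in monocytes (median 0.36), 1 of 20 in other immune cells (0.35) and 12 of 18 in non-immune cells (0.89). Higher levels of both lists were thus also seen in non-immune cells, and whether the difference between the cell types exceeds the spread between animals could not be tested.

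MHC class II genes had the largest ratios of all lists, in a set of cells of which some also carried macrophage genes. All 8 genes measured were called higher, with a median of 3.24, and Cd74, the invariant chain of class II molecules, had 196 and 2599 CPM. The macrophage marker C1qa, a complement chain, had 11.7 and 479 CPM, and the 6 macrophage markers summed to 412 and 4351 CPM. Under 1000 genes, 5 of 5 were called, with a median of 1.69, and Cd74 had 66.6 and 275 CPM. In non-immune cells Cd74 had 54.5 and 195 CPM. Without the cells that carried at least 10 UMIs of markers of other types, 5 of 5 were called, with a median of 1.48. In cells with 750 to under 1000 genes, class II genes summed to 268 and 712 CPM. The macrophage markers there summed to 433 and 501 CPM. With 1500 genes or more, the sums were 1767 and 18471 CPM for class II and 583 and 14517 CPM for the macrophage markers. Of class II genes in the other cells compared above, 4 of 4 were called higher in non-immune cells (median 1.59). In other immune cells 6 of 11 were called higher (0.59) and in monocytes 0 of 10 (-0.16), and 0 were called lower in each. The part of other cell types and of free RNA in the ratios of the mature neutrophils was not tested.

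**Figure D5:**
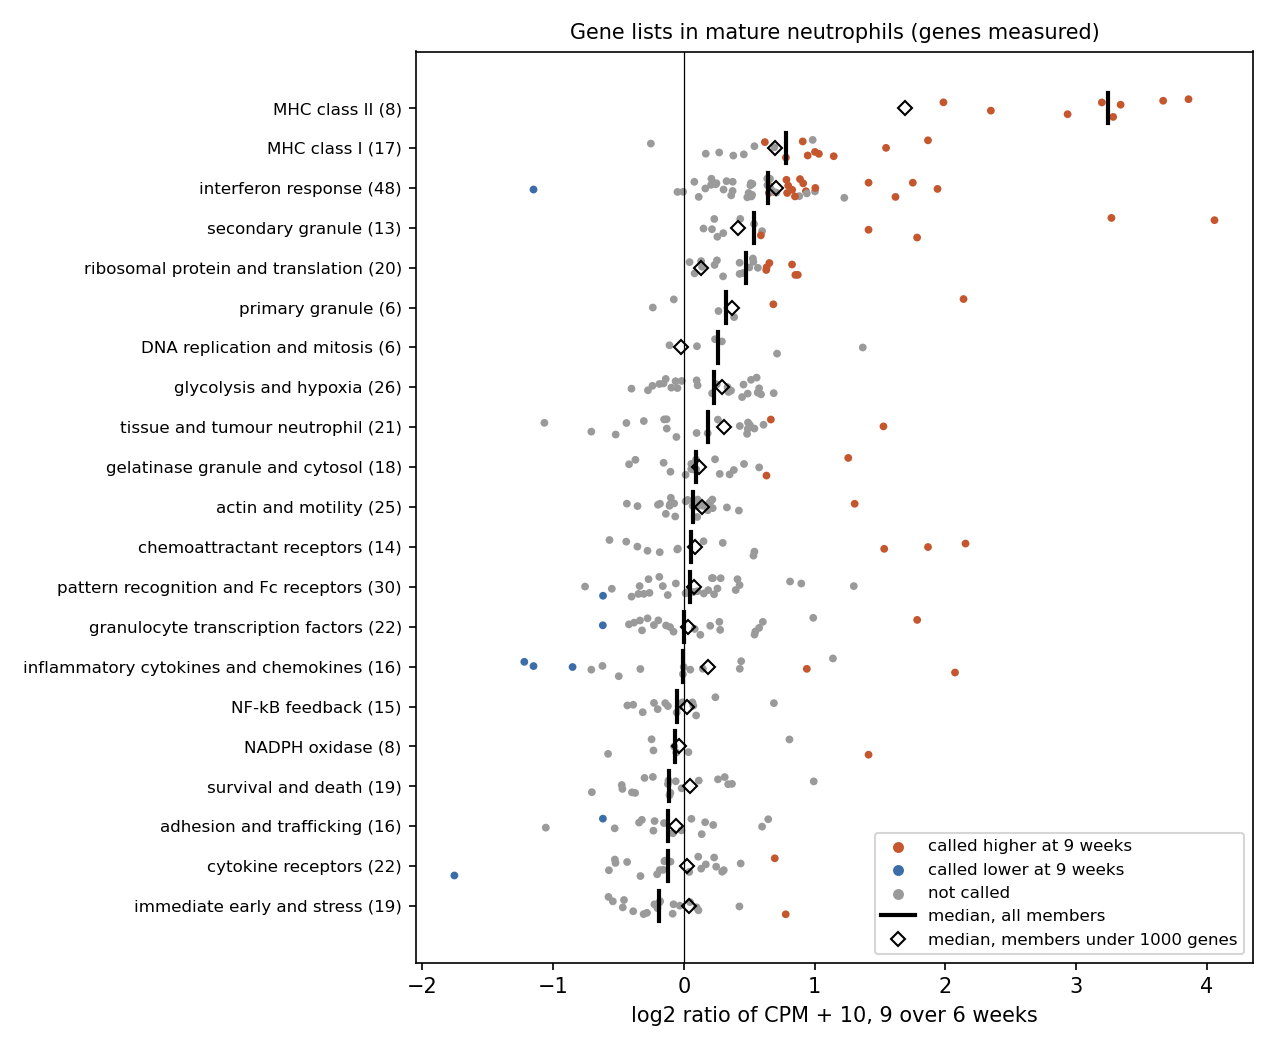
Log2 ratio of CPM + 10 at 9 over 6 weeks for each gene measured in 21 lists (points), with the median over all mature neutrophils (bars) and over those under 1000 genes (diamonds). Interferon and MHC class I medians were near each other in both sets of cells (0.64 and 0.70, 0.78 and 0.70), while the MHC class II median went from 3.24 to 1.69.

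Inflammatory genes showed no common direction. Of 16 cytokine and chemokine genes measured, Ccl5 and Cxcl16 were called higher and Il1rn, Cxcl10 and Ccl4 lower, with a median of 0.00. Under 1000 genes 1 of 10 was called higher (Cxcl10) and 1 lower (Il1rn), with a median of 0.18. Il1b had 2615 CPM (2446 to 2792) and 2602 CPM (2514 to 2692), and under 1000 genes 2870 and 3766 CPM without a call. Il1rn, which encodes the antagonist of the interleukin 1 receptor, had 280 CPM (227 to 342) and 151 CPM (131 to 174), and was also called lower under 1000 genes, with 310 and 187 CPM. Ccl5 had 46.7 and 98.9 CPM, but 11.8 and 18.3 CPM under 1000 genes without a call. Nlrp3, the sensor of an inflammasome, was the only one of 30 pattern recognition and Fc receptor genes with a call, and was lower (213 and 135 CPM). Under 1000 genes it was called as well (259 and 162 CPM), and Cd14, a co-receptor for lipopolysaccharide, was higher (19.6 and 94.8 CPM), the only other call of 29. Without the cells that carried markers of other types, 0 of 29 were called, and Nlrp3 had 243 and 161 CPM.

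Most other programmes gave few calls. None of 15 NF-kB feedback genes was called (median -0.05), and 0 of 19 survival genes (-0.11) or 26 glycolysis and hypoxia genes (0.23). Under 1000 genes these lists gave 0 of 14 (0.02), 0 of 18 (0.05) and 1 of 23 (0.29), which was the glycolytic enzyme gene Pgam1, higher with 106 and 188 CPM. Without the cells that carried markers of other types, 1 survival gene was called lower and 2 glycolysis genes higher. Mcl1, on which neutrophil survival depends, had 1922 CPM (1778 to 2075) and 1900 CPM (1825 to 1976). Of 19 immediate early genes 1 was called, Fos, with 245 CPM (196 to 304) and 428 CPM (393 to 466), and under 1000 genes 1 of 18, Fos again (267 and 534 CPM), while Junb (1151 and 983 CPM) and Dusp1 (947 and 891 CPM) were not. Among 8 genes of the NADPH oxidase, which makes superoxide, only Cybb was called, with 73.0 and 211 CPM, and under 1000 genes it had 47.0 and 65.7 CPM and 0 of 8 were called.

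Of 22 granulocyte transcription factors, Irf8 was called higher and Id2 lower (median 0.00), and under 1000 genes neither was, but Zeb2 was lower (282 and 161 CPM), 1 of 20. Of 25 actin and motility genes 1 was called higher (Tmsb10, median 0.07), and under 1000 genes 0 of 25, with 66.6 and 107 CPM for Tmsb10. Of 21 genes tied to tissue and tumour neutrophils 2 were called higher, Cd63 among them (median 0.18), and under 1000 genes 2 of 17 were, Ccrl2 and the protease inhibitor Cstb (74.5 and 151 CPM), while Cd63 then had 141 and 139 CPM. Ribosomal protein and translation genes had 6 of 20 called higher (median 0.48), but 0 of 20 under 1000 genes (median 0.13). Only 6 of 22 DNA replication and mitosis genes were measured, and 0 were called, as were 0 of 3 under 1000 genes.

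Genes were also named by size, with a log2 ratio of at least 1, 50 CPM, 30 UMIs and UMIs in 10% of cells where they were higher. Besides Ifi47, Ifit1, H2-Q7, Gbp2 and Cybb, the 12 highest held the kinase gene Cdk11b (1.44), Snapc5 (1.36), Oas1a (1.32), which makes the activator of an antiviral ribonuclease, Camk1d (1.23), the protease gene Ctsh (1.17), Ap3b1 (1.10) and Asprv1 (1.07). Asprv1, an aspartic protease (chromosome 6, 86628164 to 86629710), had 178 CPM (136 to 229) and 385 CPM (351 to 420), and over all other cells 0.437 and 6.32 CPM. It was called in each of the 11 other settings. Ctsh, which macrophages express strongly, turned to a log2 ratio of -0.09 under 1000 genes, and Cybb, Oas1a and Camk1d were no longer called there. At 6 weeks Cdk11b, Snapc5, Oas1a, Camk1d and Ap3b1 had only 7, 8, 5, 6 and 8 UMIs. Of these genes, only Ap3b1 was still called with cells thinned to 1000 UMIs.

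Of the genes lower at 9 weeks 10 passed. Lars2, the mitochondrial leucyl-tRNA synthetase, had the largest ratio (-1.91), with 876 CPM (780 to 981) and 226 CPM (201 to 253). It was also lower in monocytes (136 and 66.1 CPM) and non-immune cells (147 and 94.7 CPM). Gm42418, a gene model that overlaps ribosomal RNA, had 13970 and 3411 CPM in mature neutrophils, 3430 and 1115 CPM in monocytes and 3787 and 1365 CPM in non-immune cells. The 6-week library thus had more of this RNA in each of these cell types, and its part in the other differences was not tested.

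The other 9 were Anxa6 (-1.82), Abhd2 (-1.66), Acadsb (-1.62), Nlrx1 (-1.58), Mical1 (-1.16), Slc44a1 (-1.14), Sdha (-1.10), Ctdsp2 (-1.06) and Rasgrp2 (-1.01). Anxa6, a membrane-binding annexin, had 99.3 CPM (68.8 to 139) and 21.0 CPM (13.9 to 30.6), and Rasgrp2, which activates the integrin regulator Rap1, 187 CPM (144 to 239) and 88.0 CPM (72.5 to 106). Mical1, an actin-oxidizing enzyme, had 161 and 66.2 CPM. These 3 genes, Lars2 and the choline transporter gene Slc44a1 were called in each of the 11 other settings. Abhd2, Acadsb and Sdha were higher in all other cells of the 6-week library (263, 241 and 272 CPM) than in its neutrophils (137, 126 and 143 CPM). Cortical markers were also more abundant in the 6-week neutrophils, and the part of cortical RNA in the genes lower at 9 weeks was not tested. Under 1000 genes Abhd2, Acadsb and Ctdsp2 were not called, while Sdha was. Thinned to 1000 UMIs, Acadsb, Nlrx1, Sdha and Ctdsp2 were not called.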

How the data were processed

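Adrenal cells were captured with the Chromium 3' v3.1 kit, per the labels' protocols. The submitters' processing notes name Cell Ranger 6.0.1, Seurat and mm10. For the annotation release, the sources used here give none. The deposited matrices hold raw UMI counts, without normalization by the authors. Rows of the same symbol were summed (32285 rows, 32245 symbols), and 3 list genes had no row. UMIs of the mature neutrophils were summed per library and scaled to CPM, with exact Poisson intervals. Shares carry exact Clopper-Pearson intervals. Cells are not replicates, so no count model was fitted. 

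The members, the 21 lists and the tests were chosen with earlier results of these data known. Genes were named by taking up to 12 each way by log2 ratio with a pseudocount of 10 CPM, from those called with a log2 ratio of at least 1, 50 CPM, 30 UMIs, UMIs in 10% of cells and 0.5 of the level over all other cells. Left out were genes of the rule, immunoglobulin, T cell receptor, haemoglobin, mitochondrial and ribosomal protein genes and model numbers. Classical monocytes were defined by marker counts. Some genes of the lists are counted in them but not reported here by name.

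Doublets were called per library with Scrublet at an expected 0.8% per 1000 cells. It marked 455 cells (5.23%) and 595 (5.57%), among them 8 and 28 mature neutrophils, which were kept except in an alternative. Alternatives covered pseudocounts, scalings, cell filters and thinning to 1000 UMIs. Leaving out cells with at least 10 UMIs of markers of other cell types and a minimum of 1500 genes were added after seeing the data. The counting was checked on simulated data. Gene positions are from GENCODE M21. Calculations ran in Python 3.11.15 with scanpy 1.11.5, anndata 0.12.19, pandas 2.3.3, matplotlib 3.10.9, scipy 1.17.1 and numpy 2.4.6.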

Additional observations from a re-analysis of the deposited data

How the results depend on the processing

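No paired analysis was possible because there is 1 library per age. The ratio of the share of all cells, 2.22, lay between 2.03 and 2.29 under the other settings but was 3.05, 5.56 and 3.82 at minima of 750, 1000 and 1500 genes. That among immune cells, 1.04, was 2.41 at 1000 genes. Against 209 genes called higher, 117 were called with each cell weighted alike, of which 110 were among the 209. Under 1000 genes 65 were called (39 shared), thinned to 1000 UMIs 57 (44 shared) and without cells carrying markers of other types 68 (47 shared). Against 176 called lower, 104 were called with a pseudocount of 50 CPM, all among the 176. Under 1000 genes 76 were called (47 shared) and thinned 51 (33 shared). Without Scrublet doublets 95 were called (69 shared), and without cells carrying other markers 102 (66 shared). Several of these settings test fewer genes or cells. The MHC class II median, 3.24, was 3.69 and 2.61 with pseudocounts of 1 and 50 CPM, 2.35 with cells weighted alike, 1.69 under 1000 genes, 2.53 thinned and 1.48 without cells carrying other markers. Over the 11 settings the interferon median lay between 0.40 and 0.73 with 11 to 17 genes higher, and that of MHC class I between 0.50 and 0.85 with 4 to 11. Of the 22 named genes, only Ctsh changed direction, to -0.091 under 1000 genes, and the cause was not tested. Thinning, under which 9 of 22 lost their call, left 13. With 342295 UMIs in the 6-week neutrophils, 3 UMIs amount to 8.76 CPM, which limits the genes near that level.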

Other observations

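S100a8 was also found at low levels outside the neutrophils, and more so at 9 weeks. It had UMIs in 1.18% of non-immune cells at 6 weeks and 36.5% at 9 weeks, with levels of 1.73 and 46.3 CPM at median depths of 14483 and 11444 UMIs. In classical monocytes, defined here with under 30 UMIs of S100a8 and S100a9, it stood at 4.04 and 63.3 CPM. The limit of 2% of UMIs in the rule for mature neutrophils lies far above these levels. Of other genes high in the mature cells, Csf3r had UMIs in 0.456% and 0.856% of non-immune cells and Il1b in 0.253% and 0.915%.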
